A study of Mus musculus with 8 samples.

Results

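*Tex* (testis expressed) and *Spata* (spermatogenesis associated) genes share a naming stem that was given for expression in the testis, and not a common origin or function. Protein-coding genes on standard chromosomes whose name begins with Tex or Spata followed by a number were taken, without *Tex11*, *Tex12* and *Spata22*, which left 50 of the 22603 genes in the table: 27 *Tex* and 23 *Spata* genes, 45 of them autosomal and 5 X-linked. RNA-seq was available for 4 samples of pachytene spermatocytes, 2 from *Setdb1* conditional knockout (cKO) males and 2 from wild-type (WT) males. The question was how *Setdb1* deletion alters transcript levels at the stage when the X and Y are normally silenced. The cKO mice are *Setdb1* flox/- on a C57BL/6J background and carry *Ngn3-Cre* and a ROSA26-EYFP reporter. Cre acts from spermatogonia onward in the germ line, and outside the testis in pancreas and gut. Once recombined, the allele lacks key residues of the methyltransferase domain. The WT mice are C57BL/6J and carry neither Cre nor floxed allele. The cKO mice were at postnatal day 15 or older, and which age belongs to which library is not stated. The WT mice were all at postnatal day 15. Germ cells of the cKO arrest at midpachynema. Early-to-mid pachytene cells of both genotypes were sorted on Hoechst fluorescence, and 500 cells were taken for RNA. Test sorts from WT mice at postnatal day 15 gave enriched and not pure populations. The paper gives no purity for sorted cKO cells. Replicate libraries may or may not derive from different animals, since no label tells. The p-values therefore reflect the variation between libraries only, which could be technical.

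Spermatogenesis carries germ cells from spermatogonia through meiosis to haploid spermatids. Pachynema is the long stage of meiotic prophase when chromosomes are paired, the sex chromosomes are silenced, and transcripts for later spermatid building begin to accumulate. Not every gene with such a name was given a role, and those that were fall into 3 broad classes. Some are expressed in most tissues, such as *Spata5* and *Tex10*. Others act in spermatogonia and meiosis, such as *Tex14*, which is needed for the bridges that join germ cells, and *Tex15*, which acts in meiotic repair and transposon silencing. A further class builds the sperm head, flagellum and mitochondria.

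Levels are given in TPM (transcripts normalized for length and library) and were taken from the deposited table. Genotypes were compared by limma after the transformation log2(TPM + 1), and a gene was called where its Benjamini-Hochberg adjusted p over 19462 protein-coding genes was under 0.2. The total per sample ranged from 942186 to 1109725 TPM. Read depth is unknown. *Setdb1* stood at 28.7 and 37.2 TPM in the cKO samples and at 56.9 and 59.3 TPM in WT (adjusted p = 0.269). The cKO samples correlated at 0.923 across genes and the WT samples at 0.974, and cKO replicate 1 lay further from WT (0.876 and 0.886) than cKO replicate 2 did (0.944 and 0.952). Markers of round and elongating spermatids summed to 1080 and 209 TPM in the cKO samples and to 112 and 167 TPM in WT (12 genes, of which 2 were called higher and 8 had both cKO samples above both WT samples). The median marker stood at 82.9 and 5.24 TPM in the cKO samples and at 0.800 and 1.44 TPM in WT, and *Acr* alone gave 132 and 155 TPM in cKO and 92.8 and 141 TPM in WT. *Tnp1*, a defining spermatid gene, had 79.6 and 0 TPM in cKO and 0 and 1.82 TPM in WT. Leydig cell markers (5 genes) summed to 760 and 108 TPM in cKO and 91.6 and 240 TPM in WT, and Sertoli markers (7) to 1530 and 1399 TPM in cKO and 1484 and 1294 TPM in WT, with 0 calls in either list and 0 genes at an unadjusted limma p under 0.05. Spermatogonial markers (8) summed to 502 and 309 TPM in cKO and to 205 and 273 TPM in WT, with 0 calls and 1 gene at an unadjusted p under 0.05. The pachytene markers (9 genes) summed to 2556 and 3170 TPM in cKO and to 3741 and 4385 TPM in WT. Of the 9, 3 were higher (*Ccna1*, *Spag6* and *Adam3*) and 0 lower. Before adjustment, limma p was under 0.05 for the same 3 and for 3 lower ones (*Sycp1*, *Piwil1* and *Hspa2*). In 5 of the 9 both cKO samples lay below both WT samples. *Ccna1* had 142 and 238 TPM in cKO against 24.7 and 26.1 TPM in WT. *Spag6* had 109 and 8.15 TPM in cKO against 1.58 and 0.527 TPM in WT. *Piwil1*, a piRNA factor of pachytene cells, had 27.2 and 190 TPM in cKO against 445 and 488 TPM in WT. Whether cells of other stages contribute to the values below was not tested. Fewer cells of a type and less RNA per cell cannot be told apart in bulk samples.

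In cKO cells 10 of the 49 genes tested were higher and 2 were lower. Of all genes tested 3.48% were higher and 1.11% were lower, against 20.4% and 4.08% of the *Tex* and *Spata* genes. Both cKO samples lay above both WT samples for 31 of the 49 genes (63.3%, against 26.3% of all genes), and below both for 5 (10.2% against 18.1%). At an unadjusted p under 0.05, 22 were higher (9.19% of all genes) and 3 lower (4.39% of all). The log2 fold change was above 0 in 42 of the 49 genes (85.7%, against 56.1% of all). Its median was 0.88 over the 49 genes and 0.08 over all genes. Taken one sample at a time, the median log2 difference from the WT mean was 1.33 for cKO replicate 1 and 0.57 for cKO replicate 2. Over all genes it was 0.13 and 0.02. Without cKO replicate 1 the median of the members tested was 0.57 (0.02 over all genes), and without cKO replicate 2 it was 1.23 (0.13). Without WT replicate 1 it was 0.76 (0.11 over all genes), and without WT replicate 2 it was 1.12 (0.06). The calls depended on the sample left out. Without either WT sample they were lost over all genes as well, so that loss is not particular to the *Tex* and *Spata* genes. Of the 49 genes, 5 were over 0.1 TPM, the limit for testing, in the cKO mean only (*Tex33*, *Tex48*, *Tex13c1*, *Spata31* and *Spata31d1d*) and 0 in the WT mean only, so that higher cKO values were built into their being tested. Without these 5, 8 of 44 were higher and 26 had both cKO samples above both WT samples. With no such limit the counts were again 10 and 2. *Spata31d1c* alone was too low to be tested, at 0.101 and 0.019 TPM in cKO and 0 and 0.187 TPM in WT. The tested members nearest to the expression limit were *Tex46* and *Tex13a*, with genotype means of up to 1.12 and 1.93 TPM.

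**Figure D1:**
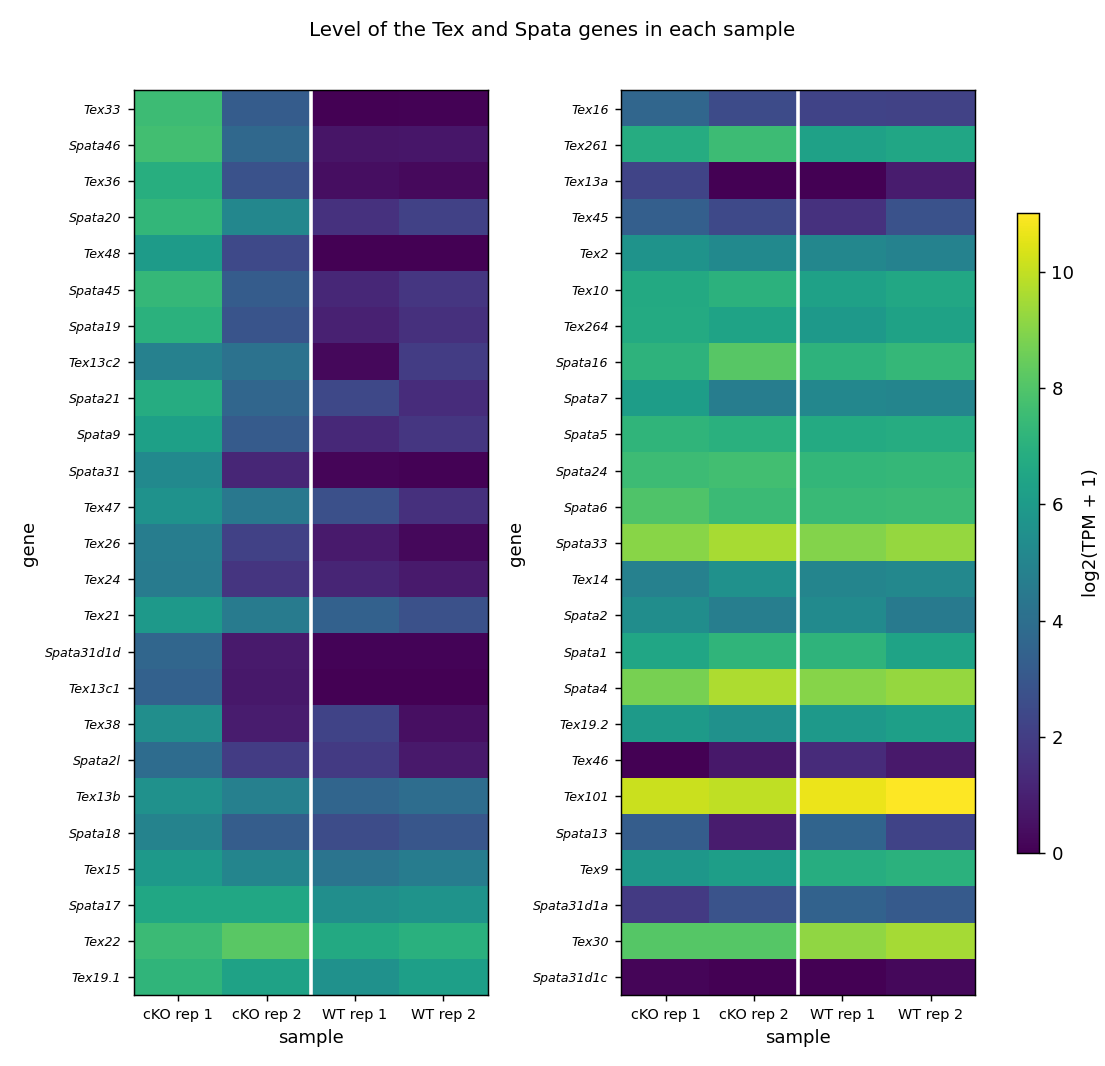
Colour gives log2(TPM + 1) of each of the 50 genes (rows, ordered by the log2 fold change of cKO over WT, from the highest at top left) in the 2 *Setdb1* cKO and 2 WT samples (columns, separated by a white line). The upper rows of the left panel are bright in cKO replicate 1, paler in cKO replicate 2 and dark in WT, as for *Tex33* at 189 and 8.18 TPM in cKO and 0 and 0.0572 TPM in WT.

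The largest log2 fold changes were those of 5 genes that were low in WT. *Spata20*, which encodes a spermatid protein with a thioredoxin-like domain, had 157 and 32.9 TPM in cKO and 1.97 and 3.38 TPM in WT, a log2 fold change of 4.34 ± 0.71 (SE; limma adjusted p = 0.070). *Spata46*, needed in mouse for the shaping of the sperm head, reached 207 and 12.3 TPM in cKO against 0.554 and 0.569 TPM in WT (5.07 ± 1.15; adjusted p = 0.142). *Tex33* had 189 and 8.18 TPM in cKO, and 0 and 0.0572 TPM in WT (5.34 ± 1.27; adjusted p = 0.154). *Tex36* gave 119 and 5.84 TPM in cKO against 0.334 and 0.214 TPM in WT (4.49 ± 1.21; adjusted p = 0.190), and *Tex48* gave 64.9 and 4.37 TPM in cKO while both WT samples list it at 0 (adjusted p = 0.173). In each of these 5 genes the cKO samples lay wholly above WT, and cKO replicate 1 was far above cKO replicate 2. Without cKO replicate 1 these 5 genes were also called, in a fit where the spread comes from the WT pair alone and the lone cKO sample is assumed to vary like it. Without the trend only *Spata20* of the 5 was called, and with quantile normalization only *Spata20* and *Spata46*.

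Log2 fold changes were smaller in the other higher genes. *Tex47* had 48.5 and 20.6 TPM in cKO against 5.46 and 1.89 TPM in WT (2.92 ± 0.59; limma adjusted p = 0.117). *Tex21* had 59.4 and 22.8 TPM in cKO and 9.79 and 5.62 TPM in WT (2.17 ± 0.53; adjusted p = 0.160). *Spata17*, whose product has calmodulin-binding IQ motifs, had 93.4 and 94.5 TPM in cKO and 42.6 and 49.8 TPM in WT (1.01 ± 0.24; adjusted p = 0.156). Of the 10 higher genes it had the closest pair of cKO samples and the smallest log2 fold change. The other 2 higher genes are X-linked and are described with that chromosome. The calls of *Tex47*, *Tex21*, *Spata17*, *Tex13b*, *Tex13c2* and of both lower genes were lost without cKO replicate 1.

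**Figure D2:**
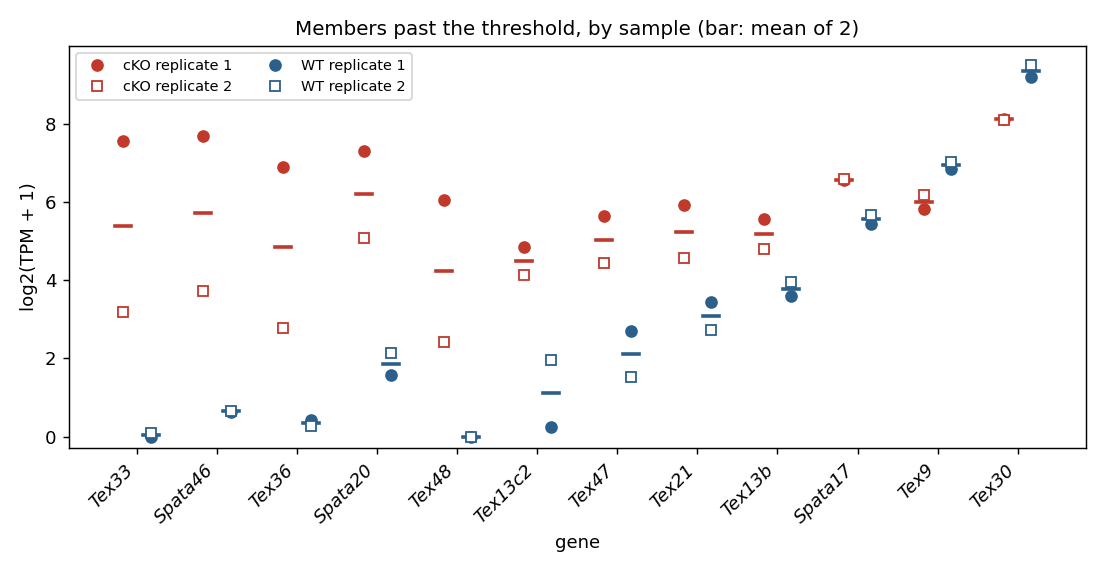
Level of the 12 called genes, as log2(TPM + 1), for cKO (red, left of each pair) and WT (blue) samples; circles are replicate 1, squares replicate 2, and bars the mean of 2. cKO and WT samples do not overlap for any of the 12, and the gap between the red symbols is widest in *Tex33*, *Spata46*, *Tex36* and *Tex48*.

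Only *Tex30* and *Tex9* were lower. *Tex30*, which encodes a protein with an alpha/beta hydrolase-like fold, had 278 and 275 TPM in cKO and 585 and 732 TPM in WT (log2 fold change -1.24 ± 0.26; limma adjusted p = 0.122). *Tex9* had 56.0 and 72.0 TPM in cKO and 114 and 130 TPM in WT (-0.93 ± 0.25; adjusted p = 0.196). *Tex9* overlaps *Mns1*, a gene for a flagellar protein on the other strand, over 32.3% of its exonic bases, and shares 31.1% of its 31-base words with other genes, so reads from both may be mixed. *Mns1* itself had 242 and 334 TPM in cKO, against 279 and 272 TPM in WT (log2 fold change 0.04). *Tex30* shares 15.3% of its words, the most with a predicted gene (Gm29247). Under rescaling to the autosomal sum neither gene passed, and under quantile normalization only *Tex30* did.

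The most abundant gene of the set, *Tex101*, encodes a glycosylphosphatidylinositol-anchored germ cell surface protein needed by mouse sperm to pass into the oviduct. It had 1121 and 990 TPM in cKO and 1651 and 2068 TPM in WT, with both cKO samples below WT, and missed the threshold (log2 fold change -0.81 ± 0.33; adjusted p = 0.352). It made up 18.96% and 19.17% of the summed TPM of all 50 genes in cKO and 34.5% and 36.5% in WT. That sum was 5909 and 5161 TPM in cKO against 4784 and 5662 TPM in WT (exact two-sided permutation p = 0.67). Without *Tex101* it was 4789 and 4171 TPM in cKO against 3133 and 3595 TPM in WT (exact permutation p = 0.33), and this p is the smallest that 2 against 2 samples can give. After *Tex101* and *Tex30*, the highest WT levels were those of *Spata4*, *Spata33*, *Spata6* and *Spata24*. *Spata4* had 432 and 814 TPM in cKO and 520 and 622 TPM in WT, *Spata33* 534 and 769 TPM in cKO and 496 and 613 TPM in WT, and *Spata6* 251 and 180 TPM in cKO and 176 and 183 TPM in WT. Groups overlapped in these 3 genes, and the log2 fold changes were 0.06, 0.22 and 0.24. *Spata24* had 184 and 205 TPM in cKO and 157 and 160 TPM in WT (adjusted p = 0.653), and 35.9% of its 31-base words are found in another gene model too.

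The choice of genes made no use of sequence, and their promoters differ in CpG content. RefSeq (GRCm38.p6) gives a window from 250 bases before to 50 bases after a start for 43 of the 50 genes. Those of 4 higher genes are printed to show CpG-poor promoters, and those of *Spata17* and both lower genes to show CpG-rich ones, on the strand of the gene, with each CpG in capitals. For *Tex33* the first of its 2 windows is shown.
Tex33, chr15:78395863-78396162, minus strand: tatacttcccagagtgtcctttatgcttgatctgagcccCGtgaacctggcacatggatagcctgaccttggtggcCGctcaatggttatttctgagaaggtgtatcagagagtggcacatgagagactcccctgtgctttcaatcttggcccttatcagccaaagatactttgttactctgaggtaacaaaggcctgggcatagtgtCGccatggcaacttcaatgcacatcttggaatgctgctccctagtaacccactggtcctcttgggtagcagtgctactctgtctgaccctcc
Spata46, chr1:170308569-170308868, plus strand: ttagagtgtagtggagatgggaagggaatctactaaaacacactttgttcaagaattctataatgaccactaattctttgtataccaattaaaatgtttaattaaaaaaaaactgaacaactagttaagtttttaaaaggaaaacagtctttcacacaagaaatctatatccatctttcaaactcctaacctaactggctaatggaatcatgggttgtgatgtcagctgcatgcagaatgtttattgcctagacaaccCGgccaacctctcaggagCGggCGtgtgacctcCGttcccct
Spata20, chr11:94485261-94485560, minus strand: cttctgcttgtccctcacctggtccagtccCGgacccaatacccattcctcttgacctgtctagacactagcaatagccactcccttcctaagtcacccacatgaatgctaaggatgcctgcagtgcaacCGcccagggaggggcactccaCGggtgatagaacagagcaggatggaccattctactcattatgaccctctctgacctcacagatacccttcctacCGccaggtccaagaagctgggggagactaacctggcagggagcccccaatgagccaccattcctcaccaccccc
Tex47, chr5:7303914-7304213, plus strand: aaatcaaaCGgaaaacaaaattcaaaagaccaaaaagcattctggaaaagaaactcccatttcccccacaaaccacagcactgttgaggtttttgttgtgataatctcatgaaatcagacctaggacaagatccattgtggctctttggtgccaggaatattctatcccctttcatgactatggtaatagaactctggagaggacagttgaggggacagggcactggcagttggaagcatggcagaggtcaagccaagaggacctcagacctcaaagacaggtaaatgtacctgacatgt
Spata17, chr1:187215397-187215696, minus strand: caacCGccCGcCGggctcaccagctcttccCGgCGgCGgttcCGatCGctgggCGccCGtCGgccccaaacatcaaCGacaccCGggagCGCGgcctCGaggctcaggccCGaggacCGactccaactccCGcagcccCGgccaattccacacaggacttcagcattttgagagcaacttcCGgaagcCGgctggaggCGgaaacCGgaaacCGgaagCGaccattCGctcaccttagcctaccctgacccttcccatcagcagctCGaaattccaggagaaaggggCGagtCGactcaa
Tex30, chr1:44102392-44102691, minus strand: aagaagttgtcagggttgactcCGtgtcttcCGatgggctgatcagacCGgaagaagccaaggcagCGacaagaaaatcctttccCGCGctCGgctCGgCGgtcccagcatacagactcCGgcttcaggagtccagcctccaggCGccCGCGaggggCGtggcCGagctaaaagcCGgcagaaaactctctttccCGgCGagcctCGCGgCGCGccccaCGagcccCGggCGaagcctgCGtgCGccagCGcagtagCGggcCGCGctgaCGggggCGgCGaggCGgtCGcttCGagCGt
Tex9, chr9:72491910-72492209, minus strand: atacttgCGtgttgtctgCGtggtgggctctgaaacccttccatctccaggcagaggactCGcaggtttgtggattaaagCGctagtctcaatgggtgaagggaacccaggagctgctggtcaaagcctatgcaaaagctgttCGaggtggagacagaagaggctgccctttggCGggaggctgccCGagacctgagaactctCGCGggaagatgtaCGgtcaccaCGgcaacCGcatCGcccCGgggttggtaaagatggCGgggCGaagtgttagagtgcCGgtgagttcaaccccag
The printed windows of *Tex33*, *Spata46*, *Spata20* and *Tex47* hold 3, 4, 4 and 1 CpG, those of *Spata17*, *Tex30* and *Tex9* hold 30, 38 and 17. The median was 6 over the 51 windows of the 43 genes and 13 over the 21263 windows of all protein-coding genes. A cut at 10 CpG was made after the values were seen, so it is a description. It took the highest count over the windows of a gene. Of the autosomal *Tex* and *Spata* genes tested, 20 had under 10 CpG, with 7 higher and 0 lower. The 20 include *Tex33*, *Tex48*, *Spata31* and *Spata31d1d*, which were tested only because of their cKO mean. *Tex33* and *Tex48* are among the 7, so part of this difference was built into the testing. The split without these genes was not made. The values that follow are for all 20 genes. The median log2 fold change of the 20 was 3.01, and by sample 4.43 for cKO replicate 1 and 1.53 for cKO replicate 2. The 19 with 10 or more had a median of 0.30, 1 higher (*Spata17*) and 2 lower (*Tex30* and *Tex9*). Among all autosomal genes with a window, the 4421 under 10 CpG had a median of 0.09, with 3.57% higher and 0.362% lower. The 9482 others had a median of 0.03, with 1.54% higher and 1.47% lower. The CpG-poor members were also the low ones in WT, with a median WT mean of 1.96 TPM against 70.4 TPM for the other set. The motif TCCCGC, read on both strands, lay in the window of 15 of the 43 genes (34.9%, against 28.4% of all 17492 genes with a window), among them *Spata17* and both lower genes but none of the other 8 higher genes with a window. TGACGTCA was in 1 of the 43 (2.33%, against 2.54%), and TGACG, which it contains, in 10 (23.3%, against 26.2%). A match is a string of letters and not a site of binding.

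**Figure D3:**
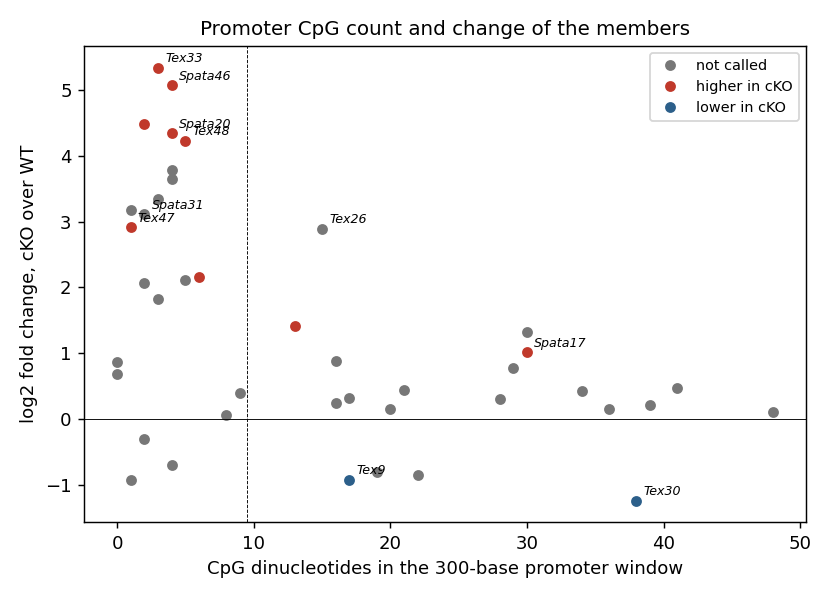
CpG count of the 300-base promoter window (horizontal axis) against the log2 fold change of cKO over WT (vertical axis) for each gene with a RefSeq window, coloured by call; the dashed line marks the cut at 10 CpG. All but 2 of the higher genes shown lie left of the line, and both lower genes lie right of it.

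The next group was over 2-fold above the WT mean in both cKO samples without passing the threshold. Across the set 16 genes were over 2-fold higher in both cKO samples (32.7%, against 5.7% of all genes), and 6 of these missed the threshold. The 16 include *Tex33*, *Tex48* and *Spata31*, which were tested only because of their cKO mean. *Tex26* had 24.4 and 3.39 TPM in cKO and 0.720 and 0.173 TPM in WT (limma adjusted p = 0.214). *Spata21*, which encodes an EF-hand protein, had 113 and 11.3 TPM in cKO and 4.18 and 1.60 TPM in WT (adjusted p = 0.222). *Spata9* had 74.8 and 7.84 TPM in cKO and 1.42 and 2.39 TPM in WT (adjusted p = 0.227), and *Spata45* had 163 and 8.22 TPM in cKO and 1.36 and 2.33 TPM in WT (adjusted p = 0.251). All 4 have non-overlapping groups, and cKO replicate 1 supplies most of the rise. The remaining 2 of the 6 are *Spata19* and *Spata31*, described below.

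Among sperm-building genes 12 of the 15 listed were tested, of which 3 were higher (*Spata20*, *Spata46* and *Tex33*) and 0 lower, or 5 and 1 at an unadjusted p under 0.05. The list median of the log2 fold change was 1.57, with 3.15 for cKO replicate 1 and 0.70 for cKO replicate 2. Over all genes the median was 0.08, with 3.48% called higher and 1.11% called lower. Among the 12 are *Tex33* and *Spata31*, tested only because of their cKO mean, so part of this difference was built into the testing. The list median without these genes was not computed. *Spata19*, a sperm mitochondrial protein in mouse, had 129 and 6.16 TPM in cKO and 1.04 and 1.88 TPM in WT (adjusted p = 0.269). *Spata18*, linked to mitochondrial quality control, had 29.7 and 8.39 TPM in cKO and 4.95 and 6.80 TPM in WT (adjusted p = 0.419). *Tex38*, which pairs with the palmitoyltransferase ZDHHC19, had 43.0 and 0.806 TPM in cKO and 3.68 and 0.360 TPM in WT, with overlapping groups. *Spata16*, an acrosome gene mutated in some men with round-headed sperm, had 137 and 283 TPM in cKO and 140 and 161 TPM in WT, and here cKO replicate 2 is the higher sample. *Tex46* was low throughout, at 0 and 0.628 TPM in cKO and 1.57 and 0.672 TPM in WT. *Spata6* and *Spata33*, given above, act in the head-to-tail junction and in anchoring calcineurin in sperm mitochondria.

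Genes of the same pathways were read from lists, in which *Spaca1* is also a spermatid marker and *Adam3* also a pachytene marker. Of 12 listed acrosome and head-to-tail genes, 1 was higher, *Pmfbp1* (36.5 and 3.57 TPM in cKO, 0.337 and 0.150 TPM in WT), and the median log2 fold change was 0.38. Next by p was *Oaz3*, with 256 and 14.1 TPM in cKO and 2.37 and 4.57 TPM in WT (adjusted p = 0.237). Of 11 tested sperm fertility genes that work beside TEX101, *Adam3*, a sperm surface protein that TEX101 helps to mature, was higher at 231 and 350 TPM in cKO against 83.7 and 102 TPM in WT (log2 fold change 1.61, limma adjusted p = 0.085). *Izumo1*, the sperm protein that binds its egg receptor, had 36.0 and 3.07 TPM in cKO and 0.539 and 0.319 TPM in WT (adjusted p = 0.248). *Zdhhc19* had 39.2 and 2.75 TPM in cKO and 0.0564 and 0.396 TPM in WT (adjusted p = 0.244).

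Among the 5 spermatogonial and meiotic genes limma gave 0 calls (1 higher at an unadjusted p under 0.05), and the median was 0.87 on the log2 scale. That median is the value of *Tex16*, an X-linked gene of this list that is described with its chromosome below. *Tex15* had 60.4 and 31.1 TPM in cKO and 18.1 and 23.5 TPM in WT (log2 fold change 1.04 ± 0.39; limma adjusted p = 0.317). *Tex19.1*, which restrains retrotransposons in germ cells, had 148 and 79.7 TPM in cKO and 47.3 and 72.7 TPM in WT (adjusted p = 0.370), and its neighbour *Tex19.2* had 62.7 and 46.2 TPM in cKO and 59.3 and 74.4 TPM in WT. The groups were separate in *Tex19.1* and overlapped in *Tex19.2*. *Tex14* overlapped too, at 28.0 and 47.1 TPM in cKO and 31.3 and 33.8 TPM in WT. Of 11 silencing partner genes of TEX15 and TEX19, 3 were lower (*Piwil2*, *Asz1* and *Tdrd9*). *Asz1*, a germ cell piRNA factor, had 47.9 and 46.3 TPM in cKO and 102 and 129 TPM in WT (adjusted p = 0.111). Of 9 bridge genes with TEX14, 0 passed, and 1 was lower at an unadjusted p under 0.05. By p they began with *Rbm44* (39.9 and 83.1 TPM in cKO, 115 and 124 TPM in WT, limma adjusted p = 0.295). Next was *Kif23*, which went the other way (61.2 and 54.2 TPM in cKO, 41.1 and 34.4 TPM in WT, adjusted p = 0.383).

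Of the role lists the broadly expressed one had the lowest median log2 fold change, 0.37. Limma called 0 of its 10 tested genes higher and 1 lower (*Tex30*), and the counts at an unadjusted p under 0.05 were 1 and 1. In 6 of the 10 both cKO samples lay above both WT samples (26.3% of all genes), and in 1 below both (18.1% of all). *Spata5*, an ATPase of ribosome maturation, had 145 and 125 TPM in cKO and 107 and 112 TPM in WT. *Tex10*, a nuclear protein of ribosome biogenesis, had 103 and 136 TPM in cKO and 78.2 and 96.7 TPM in WT. In these genes the groups did not overlap, but the adjusted p was 0.655 and 0.542. *Tex261* had 113 and 186 TPM in cKO and 77.5 and 91.2 TPM in WT (adjusted p = 0.335), *Tex264*, an endoplasmic reticulum autophagy receptor in human, 105 and 83.3 TPM in cKO and 59.3 and 81.5 TPM in WT, and *Tex2* 49.9 and 36.7 TPM in cKO and 33.2 and 28.5 TPM in WT. *Spata2*, the adaptor of the deubiquitinase CYLD, had 40.7 and 25.6 TPM in cKO and 37.5 and 22.4 TPM in WT, and its paralogue *Spata2l* 13.9 and 2.86 TPM in cKO and 2.67 and 0.667 TPM in WT (adjusted p = 0.423). *Spata7*, known from the connecting cilium of photoreceptors, had 69.1 and 24.2 TPM in cKO and 33.6 and 31.5 TPM in WT. *Spata13* had 8.47 and 0.775 TPM in cKO and 10.8 and 3.64 TPM in WT. Of the SPATA2 and SPATA33 partner genes (7 and 3 tested), 0 passed, 0 had an unadjusted p under 0.05, and the medians were 0.01 and -0.11.

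The X-linked genes numbered 5, and 2 were higher (40%, against 27.6% of X-linked genes). Their median was 1.41 on the log2 scale, against 1.03 for the whole X. It includes *Tex13c1*, tested only because of its cKO mean, so part of this difference was built into the testing. The median without *Tex13c1* was not computed. *Tex13c2* had 27.8 and 16.7 TPM in cKO and 0.194 and 2.92 TPM in WT (3.38 ± 0.67; limma adjusted p = 0.113). *Tex13b* had 46.2 and 26.9 TPM in cKO and 11.2 and 14.4 TPM in WT (1.41 ± 0.38; adjusted p = 0.189). For both the cKO samples were within a factor of 2 of each other, unlike the strongest autosomal genes. *Tex13c1* had 9.76 and 0.648 TPM in cKO and is listed at 0 in both WT samples (adjusted p = 0.337). *Tex16* had 11.4 and 4.66 TPM in cKO and 3.68 and 3.50 TPM in WT (adjusted p = 0.563). *Tex13a* had 3.85 and 0 TPM in cKO and 0 and 0.776 TPM in WT, with overlapping groups. The 44 autosomal genes tested gave 8 higher (18.2%, against 2.32% of autosomal genes), 2 lower (4.55% against 1.16%) and a median of 0.83 against 0.05. Among the 8 are *Tex33* and *Tex48*, tested only because of their cKO mean.

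The *Spata31* family lies on chromosome 13 in 2 groups. In GRCm38, *Spata31d1a* (chr13:59699806-59710330, minus strand) and *Spata31d1d* (chr13:59725925-59731752, minus) lie close together, and *Spata31* (chr13:64917406-64923194, plus) and *Spata31d1c* (chr13:65033058-65038004, plus) form the other group. *Spata31* had 36.3 and 1.28 TPM in cKO and 0.103 and 0.0358 TPM in WT (limma adjusted p = 0.322), and *Spata31d1d* had 11.5 and 0.754 TPM in cKO and 0.0873 and 0.0747 TPM in WT (adjusted p = 0.350). *Spata31d1a* went the other way, with 2.71 and 6.06 TPM in cKO and 9.94 and 7.71 TPM in WT (adjusted p = 0.501), and 24.8% of its 31-base words also occur in other genes, the most in *Spata31d1b*. For *Tex24* that share is 48.2%. *Tex24* had 23.0 and 2.24 TPM in cKO and 1.18 and 0.743 TPM in WT (adjusted p = 0.367).

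The cKO samples differed most in genes that were low in WT. Of the 49 genes, 20 were under 5 TPM in both WT samples (40.8%, against 43% of all genes). These 20 had medians of 39.7 and 4.51 TPM in the cKO samples, against 0.878 and 0.669 TPM in WT. Of the 20, 5 were tested only because of their cKO mean, and 4 are X-linked. The ratio of cKO replicate 1 to cKO replicate 2 was over 5 in 15 of the 20, with a median of 14.9. This ratio was not computed over all genes that low in WT, so it cannot be called particular to these 20. The spermatid marker sum moved the same way, at 1080 and 209 TPM in the cKO samples against 112 and 167 TPM in WT, as did the median marker given above. The part of these markers in the result was not tested. The other 29 genes had medians of 91.7 and 79.7 TPM in cKO and 59.3 and 74.4 TPM in WT, and a median ratio of 1.16. In 13 of the 49 genes cKO replicate 2 was the higher cKO sample, and 11 of these had a WT mean over 25 TPM, among them *Tex22*, with 182 and 291 TPM in cKO and 102 and 127 TPM in WT (adjusted p = 0.225).

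**Figure D4:**
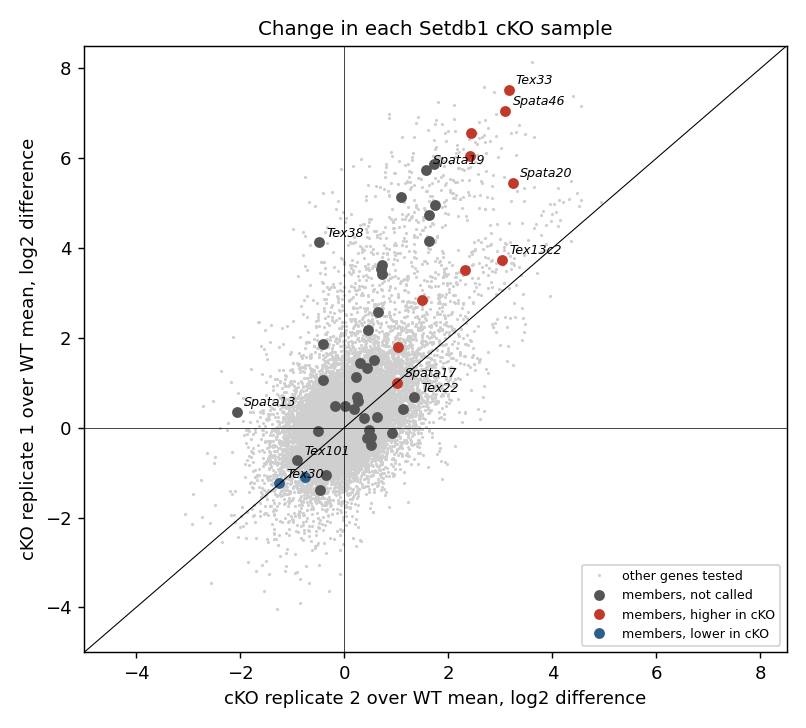
Log2 difference from the WT mean in cKO replicate 2 (horizontal axis) and in cKO replicate 1 (vertical axis) for each gene tested; grey points are other genes, dark points *Tex* and *Spata* genes that were not called, red ones higher and blue ones lower. Of the 49 genes 36 (73.5%, against 57.6% of all genes) lie above the diagonal, which marks an equal difference in both cKO samples.

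By mean level over the 4 samples, 27 genes lay between 5 and 50 TPM, of which 8 were higher and 0 lower. Their median was 2.17 on the log2 scale, against 0.14, 5.19% higher and 0.866% lower for all genes in that range. The mean includes the cKO samples, so genes low in WT, such as *Tex33* and *Tex48*, reached this range through their cKO values. The 18 genes at 50 TPM or more had a median of 0.30 with 2 higher and 2 lower, against -0.11, 3.84% higher and 3.45% lower for all. The 4 genes under 5 TPM had a median of 1.40 and 0 calls, against 0.10, 1.67% higher and 0.323% lower for all genes that low.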

How the data were processed

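Total RNA from 500 sorted early-to-mid pachytene cells of each genotype was sequenced (2 *Setdb1* cKO and 2 WT samples). Libraries were amplified by Smart-seq2. Pseudoalignment by the authors used kallisto 0.44.0 on GRCm38, and sleuth 0.30.0 gave values per gene. The deposited values are normalized TPM, handled as a signal because the columns sum to 996166 and 946174 in cKO and to 1109725 and 942186 in WT. The table holds no counts, so depth and counting error are unknown. The authors' own p-values, q-values, fold estimates and genotype means in the same table were not used, and the 4 ChIP-seq and input samples were not used here.

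Protein-coding genes (19479) with a mean over 0.1 TPM in at least 1 genotype (19462) entered limma 3.58.1 in R 4.3.3 on log2(TPM + 1), with genotype as the only term, eBayes with a trend (prior degrees of freedom 4.76, residual 2) and Benjamini-Hochberg adjustment over all of them. A fold change is on the log2(TPM + 1) scale, which understates the change of low genes. The script was tested on simulated data. Members and lists were chosen with earlier results of these data known. Named genes were those called, the X-linked members, the 6 highest in WT, members of the role lists and paralogues of the same stem. Up to 4 uncalled members over 2-fold in both cKO samples and at most 2 genes for each partner list were also named. *Tdrd9*, *Tex22*, *Tex24*, *Piwil1*, *Sycp1*, *Hspa2*, *Ccna1*, *Spag6*, *Acr*, *Tnp1* and *Mns1* were named after their values were seen. The listed genes *Spata5l1*, *Spata3*, *Tex37*, *Tex44* and *Tmem95* were not analysed here. Shared 31-base words were counted in GENCODE transcripts of GRCm38, and promoter windows are from RefSeq. Python 3.11.15 with matplotlib 3.10.9 drew the figures. Alternatives were other pseudocounts (0.1 and 0.5), no filter or one at 1 TPM, rescaling, no trend, a replicate block and leaving out each sample.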

Additional observations from a re-analysis of the deposited data

How the results depend on the processing

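The median log2 fold change of the members kept its direction under every alternative, between 0.57 and 1.23 when 1 sample was left out. The number of higher members was 16 with a pseudocount of 0.1, 6 with quantile normalization and 3 without the trend, against 10, and lay between 0 and 27 when 1 sample was left out. The number of lower members was 0 with rescaling to the autosomal sum (1 at an unadjusted p under 0.05), 1 with quantile normalization and 0 without the trend (3 unadjusted), against 2, and lay between 0 and 3. Without WT replicate 1, as without WT replicate 2, the calls were lost over all genes as well as for the members. There the fit assumes that the lone WT sample varies like the cKO samples. Over all genes the higher and lower counts were 959 and 103 with the autosomal sum, which moved the median of all genes to 0.18, and 430 and 177 with quantile normalization, which moved it to -0.11, against 678 and 217 and a median of 0.08. Without cKO replicate 2 they were 2590 and 1253. The cause was not tested.

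Replicate numbers are shared by name alone: the deviations of same-numbered samples correlated at 0.0252, so they were not taken as pairs. With a replicate block 20 members were higher and 2 lower, and 1091 and 318 genes over all.

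Of the members, 10 reversed direction under some alternative, none of them called. *Spata1* was -0.0151 and *Spata4* -0.0641 after rescaling to the autosomal median. With 1 sample left out the lowest and highest log2 fold changes were -0.28 and 0.50 for *Spata1*, -0.39 and 0.52 for *Spata4*, -2.06 and 0.36 for *Spata13*, -0.13 and 0.91 for *Spata16*, -0.21 and 0.51 for *Spata2*, -0.0452 and 0.48 for *Spata33*, -0.41 and 1.06 for *Spata7*, -0.41 and 1.86 for *Tex13a*, -0.21 and 0.52 for *Tex14*, and -0.48 and 4.13 for *Tex38*. Without counts, no limit of detection can be set for members listed at 0.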
